A study of Mus musculus with 8 samples.

Results

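Klf6 silencing was examined for its relation to 5 genes that control the fate of oligodendrocyte progenitors. These are the transcription factors Sox9, Sox10 and Sox21, the secreted ligand Wnt7b, and Dact1, an intracellular regulator of Wnt signaling. The genes were chosen by name, from roles in progenitor maintenance and in differentiation. The study names all 5 among its own Klf6-regulated transcripts. That each had a row, and at which stage, was therefore known beforehand and is no result. The 5 genes were looked up among 337 distinct transcripts, 275 deposited for oligodendrocyte progenitors (OLP) and 112 for immature oligodendrocytes (iOL). Sox9, Sox21, Wnt7b and Dact1 had a row in OLP and Sox10 had a row in iOL, so that values are given for 4 of the 5 genes at the progenitor stage and for 1 at the later stage. None had a row at both.

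The RNA came from primary cells of C57BL/6 mice. They had been isolated from the cerebral cortex near the end of the first postnatal week, by depleting microglia on lectin plates and then panning for Pdgfra, a surface receptor of progenitors. All 8 cultures had been nucleofected, which is electroporation that carries nucleic acid to the nucleus, and all had been grown with bFGF (20 ng/ml) and with PDGF-AA (10 ng/ml). Each stage comprised 2 cultures that received siRNA against Klf6 (siKlf6) and 2 that received non-targeting siRNA (NT). OLP cultures were otherwise untreated, and iOL are progenitors kept for 18 h in T3 (40 ng/ml), a thyroid hormone that starts differentiation. The study names a primary Klf6 siRNA, used throughout apart from a check of specificity, although the labels of these cultures do not repeat it. No culture without nucleofection is included. Klf6 is a zinc finger transcriptional activator, and its own level in OLP was 38.6 FPKM in NT and 20.0 FPKM in siKlf6 cultures, a change of -48.2%. FPKM counts sequenced fragments relative to transcript length and library size, so levels can be set side by side between genes. Klf6 had no row in iOL, so its level at that stage is unknown here.

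The values have 2 limits. The authors pooled the cultures of a condition into 1 FPKM, so no error between cultures and no test could be computed, and the depth of the libraries is unknown. The tables also hold only rows that the authors marked as significant, which means that a gene with no row has an unknown level and is not shown to be unchanged. Differences below are therefore given as sizes, with the size over all rows of the same table beside them.

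Sox proteins bind DNA through a high-mobility-group (HMG) box. Sox9 and Sox10 belong to the SoxE subgroup: Sox9 drives the switch of neural progenitors to glia, and Sox10 marks the oligodendrocyte lineage and activates myelin genes. Sox21 is a SoxB2 factor, a repressor that counters the SoxB1 factors of neural stem cells. Canonical Wnt signaling stabilizes β-catenin, which acts with Tcf/Lef factors in the nucleus, and in oligodendrocyte progenitors it is known as a brake on differentiation. Wnt7b is one of the ligands that start this signal. Dact1 binds Dishevelled, the relay protein below the receptor, and is mostly described as an inhibitor of the pathway.

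In OLP, both progenitor Sox factors were higher after Klf6 silencing. Sox9 was at 53.4 FPKM in NT and 87.8 FPKM in siKlf6 cultures, a log2 ratio of 0.72 or a 64.5% higher level. Sox9 was the most abundant of the 4 genes with a row in OLP, and its difference of 34.4 FPKM was the largest of the 4. Sox10 has no value in OLP and is left out of this order. Among the 275 OLP rows, Sox9 stood 29th by level in NT and 8th by level in siKlf6. The plus-strand gene Sox9 spans 112643538 to 112649074 of chromosome 11 (NCBIM37, the same assembly as mm9), with 3 exons and no overlapping annotated gene.

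Sox21 was at 19.7 FPKM in NT and 32.9 FPKM in siKlf6 cultures, a log2 ratio of 0.74 and a 67.2% higher level. On this ratio scale Sox21 differed most of the 5 genes, but with the cultures pooled its ratio cannot be ordered against that of Sox9. Their per-length levels kept nearly the same proportion, with Sox9 at 2.71 times Sox21 in NT and 2.67 times in siKlf6. Sox21 lies on chromosome 14 at 118632454 to 118636252 on the minus strand in a single exon, and the annotated gene Gm4675 overlaps it on the opposite strand. Whether reads were counted by strand is not given in the sources used here, so reads of this pair could not be told apart.

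In iOL, Sox10 was lower after Klf6 silencing. Its level was 42.1 FPKM in NT and 25.9 FPKM in siKlf6 cultures, a log2 ratio of -0.70 and a change of -38.6%. Sox10 was among the more abundant transcripts of that table, 13th of 112 rows in NT and 22nd in siKlf6. It lies on chromosome 15 at 78985343 to 78994920 on the minus strand, with 4 exons and no overlapping annotated gene. The OLP and iOL tables came from separate comparisons, so the NT level of Sox10 in iOL may be set beside that of Sox9 in OLP but not tested against it.

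**Figure D1:**
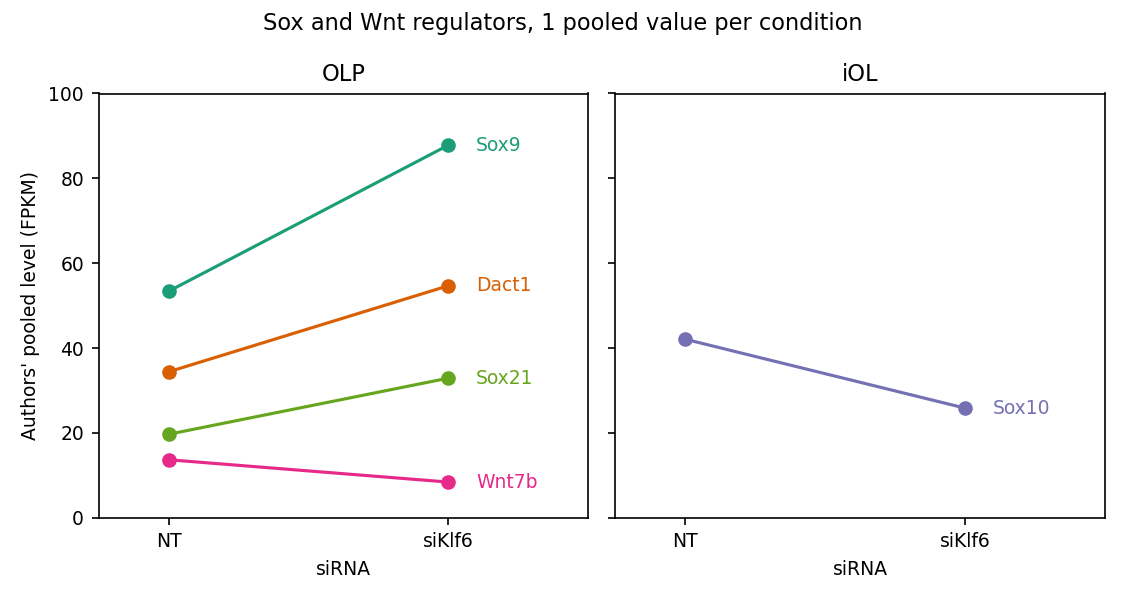
Level of each gene (FPKM, linear axis from 0) in NT and siKlf6 cultures, in OLP (left) and iOL (right). Each point is the authors' single value for 2 pooled cultures, so there are no error bars. Sox9, Dact1 and Sox21 are higher and Wnt7b is lower with siKlf6 in OLP, and Sox10 is lower in iOL.

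Since Sox9 and Sox10 are close relatives that were seen in opposite directions at different stages, their coding sequences were compared for stretches that could carry reads from one gene to the other. The longest stretch identical in Sox9 and Sox10 had 44 bases, at bases 247 to 290 of the Sox9 and 244 to 287 of the Sox10 coding sequence. It lies in exon 1 of Sox9 (chromosome 11, 112644145 to 112644188) and in exon 2 of Sox10 (chromosome 15, 78993860 to 78993903). The longest stretch that Sox21 shares with either gene is shorter, 26 bases with Sox10 and 24 bases with Sox9, and encodes the start of the HMG box. For the Sox10 pair it lies at chromosome 14, 118634804 to 118634829, in Sox21 and at chromosome 15, 78993805 to 78993830, in Sox10. The sequences are printed 5′ to 3′ as read from the GENCODE vM1 coding transcripts, with no capitals because every base is shared.
Sox9 and Sox10: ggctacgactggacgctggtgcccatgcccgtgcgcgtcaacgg
Sox10 and Sox21: ggcccatgaacgccttcatggtgtgg
No window of 50 bases in any of the 5 transcripts occurred in a coding transcript of another gene (0 of 4086 windows for Sox9, 0 of 2664 for Sox10, 0 of 3750 for Sox21, 0 of 3443 for Wnt7b and 0 of 3601 for Dact1). Read length is not given in the sources used here.

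The study measured Sox9 and Sox10 by qPCR as well, and its primers are shown because they read a different part of each transcript from the stretches above. Both pairs matched the last exon, inside the 3′ UTR. The Sox9 pair bounds 120 bases from transcript position 3600 in exon 3 (primers at chromosome 11, 112648539 to 112648558 and 112648639 to 112648658). The Sox10 pair bounds 134 bases from transcript position 2292 in exon 4 (primers at chromosome 15, 78985745 to 78985764 and 78985631 to 78985650).
Sox9 forward: ctgcctggactgtatgtgga
Sox9 reverse: tctgtccgatgtctctctgc
Sox10 forward: gagtccccatgttcttccca
Sox10 reverse: gtgccatgctaactctgagc
By qPCR after Klf6 silencing, the study reports Sox9 as higher and Sox10 as lower, the same directions as here. No qPCR values are used here.

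The pair of Wnt regulators differed in direction in OLP. Wnt7b, the ligand, was at 13.7 FPKM in NT and 8.43 FPKM in siKlf6 cultures, a log2 ratio of -0.70 and a change of -38.4%. It was the least abundant of the 4 genes with a row in OLP and the only one of them that was lower. Sox9 was at 3.90 times the level of Wnt7b per length in NT and at 10.4 times in siKlf6. Wnt7b lies on chromosome 15 at 85365869 to 85412251 on the minus strand, with 4 exons in the transcript used, and AU022754 overlaps it on the opposite strand.

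Dact1, the Dishevelled-binding regulator, was at 34.4 FPKM in NT and 54.7 FPKM in siKlf6 cultures, a log2 ratio of 0.67 and a 58.9% higher level. Its level per length was 2.51 times that of Wnt7b in NT and 6.49 times in siKlf6. Dact1 spans 72410871 to 72421094 of chromosome 12 (plus strand), with 4 exons, and 4930474H06Rik overlaps it on the opposite strand. None of the 3 overlapping antisense genes had a row of its own in either table. The limit on strand given for Sox21 holds for Wnt7b and Dact1 as well.

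The order of the levels in OLP was Sox9, Dact1, Sox21 and Wnt7b in both conditions. No spread between cultures is known, so it cannot be said which neighbours in this order differ beyond their error.

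The promoters of Dact1 and Sox21, which were both higher in OLP, are shown because Klf6 belongs to a family that binds GC-rich boxes. Of the 5 genes, these 2 had an entry among the RefSeq promoters (GRCm38.p6); Sox9, Sox10 and Wnt7b had none. Each sequence is the 250 bases before the start site, on the strand of the gene, and capitals mark matches on either strand to the GC box (GGGCGG), the CACCC box (CACCC), the Sox core (ACAAT) and the Tcf/Lef core (CTTTGA). The Dact1 promoter (chr12:71309634-71309883, plus strand) held 5 GC boxes, of which 2 overlap by 2 bases, and 2 CACCC boxes. The Sox21 promoter (chr14:118237031-118237280, minus strand) held neither, and a single Tcf/Lef core between 114 and 109 bases before the start. Neither held a Sox core.
Dact1: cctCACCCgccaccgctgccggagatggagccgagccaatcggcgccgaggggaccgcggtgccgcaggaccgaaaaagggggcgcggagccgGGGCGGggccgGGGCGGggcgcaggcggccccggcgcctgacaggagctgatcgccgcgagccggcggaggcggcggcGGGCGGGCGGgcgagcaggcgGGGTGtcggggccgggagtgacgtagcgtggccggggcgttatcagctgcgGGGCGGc
Sox21: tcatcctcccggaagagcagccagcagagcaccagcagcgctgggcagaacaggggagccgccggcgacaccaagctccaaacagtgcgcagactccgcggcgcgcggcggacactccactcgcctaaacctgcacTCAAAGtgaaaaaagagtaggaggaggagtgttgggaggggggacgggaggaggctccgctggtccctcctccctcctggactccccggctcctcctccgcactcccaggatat
Among all 32851 RefSeq promoters of the same length, 32.7% held a GC box, 52% a CACCC box, 27.7% a Sox core and 13.8% a Tcf/Lef core. G and C made up 80.4% of the Dact1 and 65.2% of the Sox21 sequence, against a median of 52.4% over all promoters. A match is a run of letters and not a binding site. The study mapped Klf6 binding directly in OLP and iOL by chromatin immunoprecipitation and sequencing, and those data are not used here.

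The 5 log2 ratios were alike in size. They lay between 0.67 and 0.74 in either direction, folds of 1.59 to 1.67, and all 4 OLP genes and the 1 iOL gene passed 1.5-fold. That count says little about them, since 99.6% of all OLP rows and 96.4% of all iOL rows did so too. With a limit of 2-fold, 0 of the 4 OLP genes and 0 of the 1 iOL gene remained, against 56.4% of the OLP and 35.7% of the iOL rows. The median size over all rows was 1.06 in OLP and 0.86 in iOL on the log2 scale, above each of the 5 genes. By size of ratio Sox21 stood 235th, Sox9 239th, Wnt7b 247th and Dact1 258th of 275 in OLP, and Sox10 stood 82nd of 112 in iOL.

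In direction, 3 of the 4 OLP genes were at least 1.5-fold higher, against 21.5% of all OLP rows, and 1 was lower, against 78.2%. Sox10 was lower in iOL, as were 42.9% of the rows there at 1.5-fold, while 53.6% were higher. The 5 genes are too few for a test of these shares. Relative to all rows they were also abundant, with a median of 27.0 FPKM in NT over the 4 OLP genes against 9.58 FPKM over the OLP table, and 42.1 FPKM for Sox10 against a median of 4.62 FPKM over the iOL table. Their ratios lay toward the small end of the listed sizes, which began at 0.58 in OLP and 0.55 in iOL. Whether listed rows with ratios of such small size are abundant in general was not tested.

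**Figure D2:**
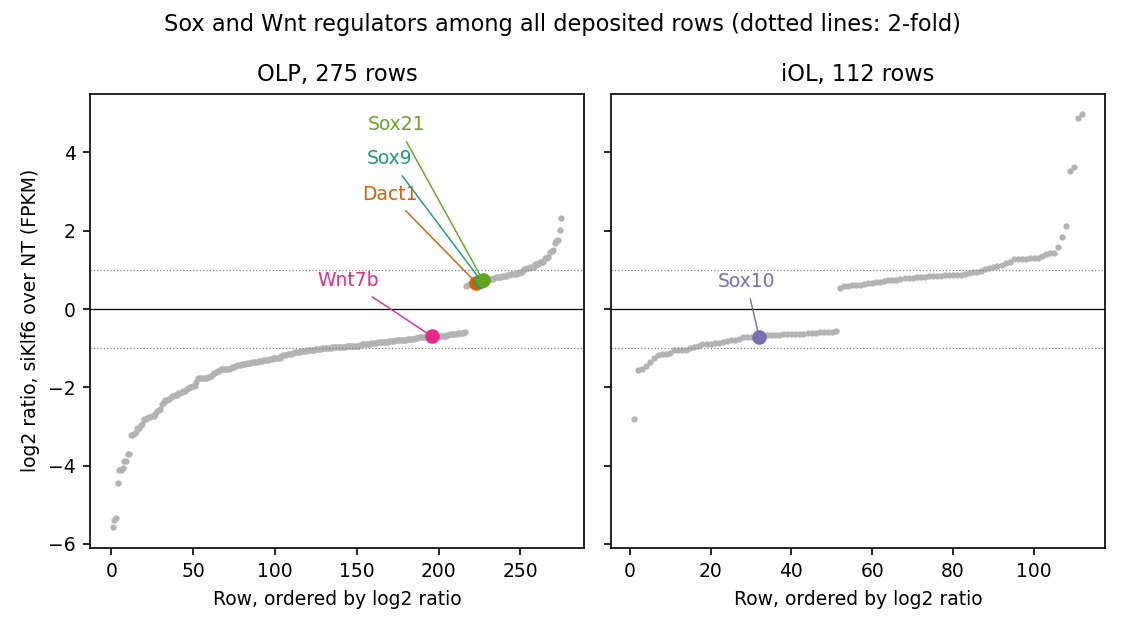
Log2 ratio of siKlf6 over NT for every row of the OLP (left, 275 rows) and iOL (right, 112 rows) tables, ordered from lowest to highest, with grey points for all rows and coloured points for the 5 genes. Dotted lines mark 2-fold. The 5 genes lie inside the dotted lines, next to the gap around 0 that the selection of significant rows leaves.

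The rows nearest to each gene in log2 ratio were found among single-gene rows that reached 1 FPKM in NT and in siKlf6, 204 in OLP and 81 in iOL. This likeness is over 2 conditions only. For Sox9 these were Arc (14.9 to 24.2 FPKM) and Fam102a (11.0 to 17.9 FPKM), and for Sox21 Pik3r3 (17.2 to 28.9 FPKM) and Ddit4l (20.6 to 34.6 FPKM). Dact1 was nearest to Dusp6, a phosphatase that inactivates Erk (104 to 165 FPKM), and to Tmem35 (58.0 to 91.7 FPKM). Wnt7b was nearest to Stmn3, a microtubule regulator (107 to 65.7 FPKM), and to E2f7, a cell cycle repressor (10.9 to 6.70 FPKM). Sox10 in iOL was nearest to Plxnb3, a semaphorin receptor (8.33 to 5.12 FPKM), and to Slc30a4, a zinc transporter (12.8 to 7.95 FPKM). The farthest of these, Fam102a, lay 0.0193 from its gene on the log2 scale.

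The whole Sox family and the Wnt pathway were then looked up. Of 19 Sox genes, only Sox9 and Sox21 had a row in OLP and only Sox10 had one in iOL. These belong to the 5 genes, so their directions are those given above and are no result about the family. No other Sox gene had a row at either stage. The study also names Sox8 among its Klf6-regulated transcripts in OLP, but Sox8 had no row here. Of 93 genes of the Wnt pathway, 4 had a row in OLP, 1 higher and 3 lower, and 1 had a row in iOL and was lower. The 3 of 4 that were lower in OLP are close to the share over all OLP rows, 216 of 275, so the count sets the pathway apart in no direction. By role, 1 of 22 genes of ligands and their secretion had a row in OLP (Wnt7b) and 0 in iOL. Of 20 receptor genes, 1 had a row in OLP and 0 in iOL. Of 25 listed inhibitors, 1 had a row in OLP (Dact1) and 1 in iOL. The list did not include Cxxc4, which encodes another Dishevelled-binding inhibitor of the pathway and was added after its value had been seen. Cxxc4 was higher in OLP, at 2.52 FPKM in NT and 4.88 FPKM in siKlf6 cultures, and its log2 ratio of 0.95 was larger than that of Dact1. A gene picked in this way adds no weight to the direction of Dact1, and it is in none of the counts. Of 21 intracellular mediators, among them the genes of β-catenin, Dishevelled and the Tcf/Lef factors, 0 had a row at either stage.

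Besides Wnt7b and Dact1, the OLP rows of the lists were Lgr5 and Myc, both of them also known as target genes of the pathway. Of 14 targets, these 2 had a row in OLP and 0 in iOL. Both were lower, as were 216 of all 275 OLP rows. Lgr5, a receptor for R-spondins, which amplify Wnt signals, was at 1.86 FPKM in NT and 0.895 FPKM in siKlf6 cultures, a log2 ratio of -1.06. Myc, a transcription factor that promotes growth, was at 87.8 FPKM in NT and 56.9 FPKM in siKlf6 cultures, a log2 ratio of -0.63. Myc responds to many pathways. In iOL the single row of the lists was Draxin, a secreted Wnt antagonist and axon guidance protein, at 2.48 FPKM in NT and 1.35 FPKM in siKlf6 cultures, a log2 ratio of -0.87. The inhibitor Dact1 in OLP and the inhibitor Draxin in iOL thus lay in opposite directions, and neither had a row at the other stage.

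**Figure D3:**
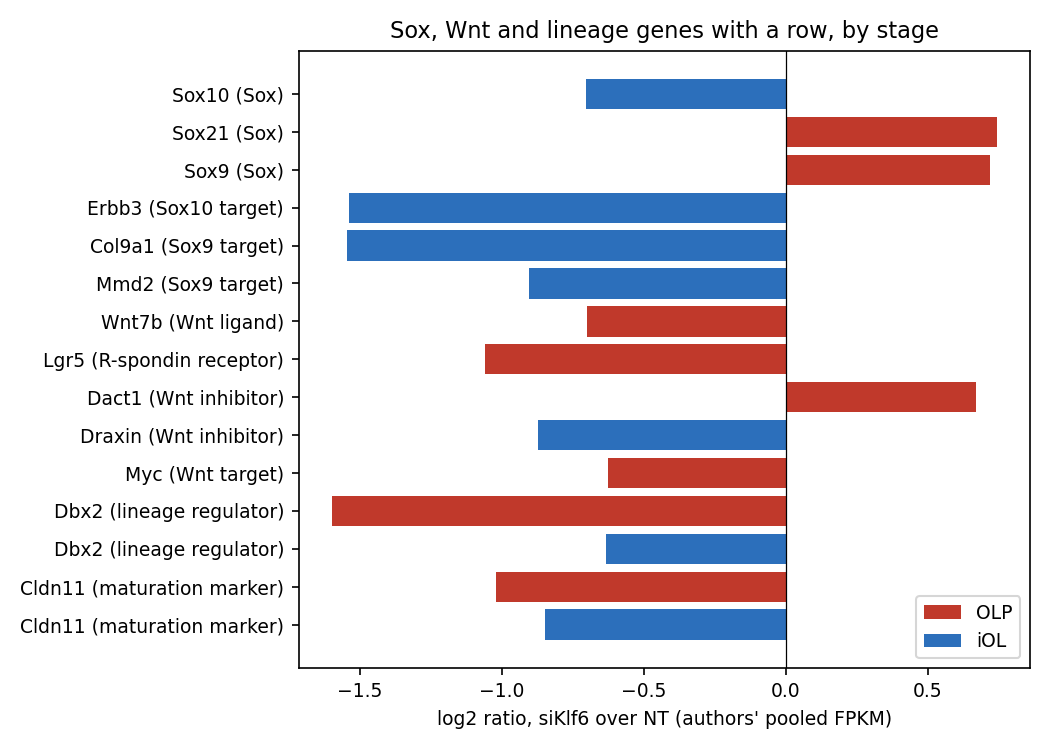
Log2 ratio of siKlf6 over NT for each listed gene with a row, as bars from 0, red for OLP and blue for iOL. The lists are the Sox family, the Wnt pathway, Sox9 and Sox10 targets, oligodendrocyte lineage regulators and markers of maturing oligodendrocytes. Sox9, Sox21 and Dact1 in OLP are the bars to the right of 0, and all others lie to the left.

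Genes known to depend on the Sox factors were few. Of 13 genes listed as Sox10 targets, 0 had a row in OLP and 1 in iOL, Erbb3, a neuregulin receptor, at 1.27 FPKM in NT and 0.436 FPKM in siKlf6 cultures (log2 ratio -1.54). Of 11 genes listed as Sox9 targets, 0 had a row in OLP, where Sox9 was higher. In iOL, where Sox9 itself had no row, 2 had one and both were lower. Mmd2, a Golgi membrane protein of glial progenitors, was at 27.0 FPKM in NT and 14.5 FPKM in siKlf6 cultures (log2 ratio -0.90), and Col9a1, a collagen chain, at 1.69 and 0.580 FPKM (log2 ratio -1.54). Erbb3 and Col9a1 were under 1 FPKM in siKlf6, where ratios are less certain.

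Among other regulators of the oligodendrocyte lineage, 1 of 25 had a row at each stage, the homeobox gene Dbx2. It was at 13.8 FPKM in NT and 4.57 FPKM in siKlf6 cultures in OLP, and at 26.6 and 17.2 FPKM in iOL, with log2 ratios of -1.60 and -0.63. Of 14 markers of maturing oligodendrocytes, 1 had a row at each stage. This was Cldn11, the tight junction protein of myelin, at 18.2 FPKM in NT and 8.97 FPKM in siKlf6 cultures in OLP and at 17.7 and 9.83 FPKM in iOL, with log2 ratios of -1.02 and -0.85. Of the 7 OLP markers, Sox10 had a row in iOL and none had a row in OLP, so the labelled cell type could not be checked against Pdgfra, Cspg4 or Olig2 here.

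Some markers of other cells also had rows in OLP. Of 36 markers of astrocytes, microglia, neurons and vessels, 6 had a row in OLP and 0 in iOL. Sox9, which astrocytes also express, was higher, and the other 5 were lower, close to the share of all OLP rows that were lower (216 of 275). Gfap, the intermediate filament of astrocytes, was at 3.06 FPKM in NT and 0.0752 FPKM in siKlf6 cultures, opposite to Sox9 in direction. The microglial genes Cd14 (1.91 to 0.146 FPKM) and Irf8 (1.81 to 0.667 FPKM) summed to 3.72 FPKM in NT and 0.813 FPKM in siKlf6. Tubb3, a tubulin of neurons, went from 22.0 to 6.62 FPKM and the endothelial receptor Kdr from 0.764 to 0.323 FPKM. The astrocyte markers Aqp4, Aldh1l1 and Slc1a2 and the microglial markers Cx3cr1 and Csf1r had no row. Of the 5 lower markers, only Tubb3 reached 1 FPKM in both conditions. The part of other cells in the values of Sox9, Sox21, Wnt7b and Dact1 was not tested. In bulk RNA, fewer cells of a type and less RNA per cell cannot be told apart.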

How the data were processed

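RNA-seq was performed by the authors on 8 cultures, 2 for each of 4 groups, which were taken from the sample titles. According to the study and the submitters' processing notes, TruSeq libraries were sequenced on an Illumina HiSeq instrument (CASAVA 1.8), adapter-trimmed reads were mapped to mm9 with TopHat2, and transcripts were quantified with Cufflinks and compared with Cuffdiff under default settings. The authors deposited FPKM values, 1 pooled value per condition, for the rows they marked as significant (275 in OLP, 112 in iOL). The tables also hold the authors' fold changes, test statistics, p-values and q-values, which were not used.

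The log2 ratio of siKlf6 over NT was computed from the pooled FPKM in Python 3.11.15 (pandas 2.3.3), with no pseudocount, and rows were counted at 1.5-fold. The calculation was tested on simulated data. No test across cultures was possible, and depth per culture is unknown. Alternatives were 1 or 0.1 FPKM added before log2, a filter at 1 FPKM in both conditions, limits of 2-fold and 1.25-fold, and rows with a single symbol. Gene positions are from GENCODE vM1 (NCBIM37), promoters from RefSeq (GRCm38.p6), and primers from the study. The 5 genes and all lists were chosen with earlier results of these data known. Genes named were the 5 genes, Klf6, list genes of the Sox, Wnt, lineage and marker lists with a row, and the 2 rows nearest to each gene in log2 ratio.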

Additional observations from a re-analysis of the deposited data

How the results depend on the processing

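No paired analysis was possible because each condition is represented by 1 FPKM pooled over its cultures, and for the same reason leaving out each culture was not run. Scaling between libraries could not be varied either, since only significant rows are given. No gene of the 5 had a row at both stages, so a difference between stages gave no value. All 5 log2 ratios kept their direction with 1 or 0.1 FPKM added and with at least 1 FPKM required. With 1 FPKM added they were 0.71 for Sox9, 0.71 for Sox21, 0.65 for Dact1 and -0.64 for Wnt7b in OLP and -0.68 for Sox10 in iOL. With 0.1 FPKM added, Wnt7b was at -0.69 and the others were as reported to 2 decimals. A pseudocount or filter cannot change a sign, so this is no measure of error. At 2-fold, 0 of the 5 genes remained at either stage, and the rows past the limit went from 274 to 155 in OLP and from 108 to 40 in iOL. Of 18 list counts, 11 moved by over 1.5 times at 2-fold and 7 with at least 1 FPKM in both conditions. The filter left out Lgr5 and the markers Gfap, Cd14, Irf8 and Kdr in OLP, and Erbb3 and Col9a1 in iOL.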

Other observations

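Draxin binds the netrin receptor Dcc, which was looked up after the value of Draxin had been seen. In OLP Dcc was at 8.03 FPKM in NT and 3.40 FPKM in siKlf6 cultures, a log2 ratio of -1.24. In iOL it was at 8.08 and 5.23 FPKM, a log2 ratio of -0.63. Dcc was therefore lower at both stages, whereas Draxin had a row in iOL alone.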
